A study of Mus musculus with 4 samples.

Results

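Transcripts of the SLC25 family, the carriers of the mitochondrial inner membrane, were described in heart and muscle of mice lacking MnSOD in these tissues. A gene belonged to the family when its symbol in the annotation of the array was Slc25a followed by a number. All its probe sets were taken, and probe sets annotated with several symbols were left out. This gave 44 genes with 93 probe sets, of 18193 genes named on the array. RNA was measured on 4 oligonucleotide arrays. The d/d heart and d/d muscle arrays carried RNA of mice with both MnSOD (Sod2) alleles deleted (del/del), bred from homozygous flox mice and mice carrying an MCK-Cre transgene. The f/f heart and f/f muscle arrays carried RNA of homozygous flox mice (flox/flox), the controls. All 4 groups thus carry the floxed gene or its deleted form, and the labels do not say whether f/f mice carry the transgene. The muscle creatine kinase promoter drives Cre in muscle cells, so the other cells of these tissues are not its targets. Age, sex, the number of animals behind a sample and the muscle taken are not given in the sources used here. Each group had 1 array, so no error between animals could be given, and every ratio below describes a pair of arrays.

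Carriers of this family exchange or import small molecules across the inner membrane: adenine nucleotides, phosphate, citric acid cycle intermediates, amino acids, acylcarnitines, cofactors and iron. They share a fold made of repeats with membrane-spanning helices, are encoded in the nucleus and are imported through the small Tim chaperones and the TIM22 complex. In heart and muscle they are best known for the export of ATP against ADP, the entry of phosphate for ATP synthesis, the entry of acylcarnitines for fatty acid oxidation and the malate-aspartate shuttle, which moves the reducing power of cytosolic NADH into mitochondria. MnSOD, which converts superoxide to hydrogen peroxide, works in the mitochondrial matrix that these carriers supply.

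The sequences below are promoters of the 3 members at least 2-fold lower in d/d than in f/f heart, of the 1 member at least 2-fold higher there, and of Slc25a25, which was 1.86-fold higher in d/d muscle. They are printed to show the start regions of some members named for genotype differences. Slc25a32, 2.73-fold higher in d/d muscle on its representing probe set, is not among them. Each runs 5′ to 3′ on the strand of the gene, from 250 bases before to 50 bases after the annotated start, as RefSeq gives it for GRCm38.p6. Matches to the GC box (GGGCGG), to the element of the estrogen-related receptors (AAGGTCA) and to the cyclic AMP response element (TGACGTCA), on either strand, are in capitals. The Slc25a22 window lies at chr7:141437825-141438124 on the minus strand and is the first of 3 windows listed for this gene. The Slc25a34 window lies at chr4:141623785-141624084 (minus), the Slc25a42 window at chr8:70212232-70212531 (minus) and the Slc25a24 window at chr3:109122899-109123198 (plus). The Slc25a25 window, at chr2:32424017-32424316 (minus), is the one of its 3 windows that holds TGACGTCA.
Slc25a22: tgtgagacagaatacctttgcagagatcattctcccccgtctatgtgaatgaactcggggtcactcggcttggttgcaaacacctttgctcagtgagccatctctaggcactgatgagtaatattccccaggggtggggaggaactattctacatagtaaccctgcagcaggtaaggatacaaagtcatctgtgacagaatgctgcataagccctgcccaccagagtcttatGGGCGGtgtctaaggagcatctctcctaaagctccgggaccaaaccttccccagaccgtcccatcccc
Slc25a34: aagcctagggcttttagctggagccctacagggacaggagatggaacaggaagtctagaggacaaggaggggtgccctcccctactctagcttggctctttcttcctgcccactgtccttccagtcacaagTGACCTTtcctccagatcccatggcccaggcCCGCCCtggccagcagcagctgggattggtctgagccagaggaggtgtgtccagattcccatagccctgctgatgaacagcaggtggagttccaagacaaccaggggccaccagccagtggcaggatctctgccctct
Slc25a42: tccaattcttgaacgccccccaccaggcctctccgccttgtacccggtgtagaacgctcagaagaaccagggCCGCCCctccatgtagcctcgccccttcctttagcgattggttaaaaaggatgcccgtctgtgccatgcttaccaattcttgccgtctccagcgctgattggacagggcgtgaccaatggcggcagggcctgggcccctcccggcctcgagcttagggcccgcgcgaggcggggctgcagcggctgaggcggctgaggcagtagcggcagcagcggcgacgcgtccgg
Slc25a24: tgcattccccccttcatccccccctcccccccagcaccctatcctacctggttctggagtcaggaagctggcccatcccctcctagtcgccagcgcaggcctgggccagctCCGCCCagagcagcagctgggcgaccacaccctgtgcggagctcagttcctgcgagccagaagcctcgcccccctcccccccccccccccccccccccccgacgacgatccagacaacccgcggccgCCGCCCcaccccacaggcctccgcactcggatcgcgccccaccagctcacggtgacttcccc
Slc25a25: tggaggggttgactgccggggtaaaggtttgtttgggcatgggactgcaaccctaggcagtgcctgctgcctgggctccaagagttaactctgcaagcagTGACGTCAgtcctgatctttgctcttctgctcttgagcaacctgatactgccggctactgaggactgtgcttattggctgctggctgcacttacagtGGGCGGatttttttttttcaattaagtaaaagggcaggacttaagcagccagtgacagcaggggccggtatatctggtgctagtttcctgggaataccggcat
All 5 windows hold a GC box, which begins 18 bases before the start in Slc25a22, 88 in Slc25a34, 178 in Slc25a42, 139 and 12 in Slc25a24 and 53 in Slc25a25. The AAGGTCA match of Slc25a34 begins 119 bases before its start, and the TGACGTCA match of Slc25a25 begins 150 bases before its start. RefSeq windows of 34 of the 44 members were used, 43 windows in all. The other 10 members had no window in this count, which does not say that RefSeq lacks one. Some member windows were left out by a rule that was not applied to the windows of all genes. The member shares below thus describe these 43 windows only, and their comparison with all windows is not strictly like for like. On both strands 8 motifs were searched, some of them chosen after the values were known, and none of these motifs contains another. A GC box stood in 37 of the 43 windows (86%), against 35.7% of all 32851 windows of this length. CACGTG, the E-box, stood in 8 (18.6%, against 7.15%), CCGGAAG, the ETS element, in 7 (16.3%, against 8.86%), and TGACNNNGC, the core of the antioxidant response element, in 12 (27.9%, against 12.4%). TGACGTCA was found for 2 members, Slc25a25 and Slc25a36, in 4.65% of the windows against 1.79%. AAGGTCA stood in 1 window (2.33%, against 4.72%) and TATAAA, the TATA box, in 1 (2.33%, against 13.6%). TGATGNAA, the core of the C/EBP-ATF element, stood in 0 of the 43, against 3.97% of all windows. These matches describe letters in a window and not binding, and the share of G and C in the windows was not matched.

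Between 58.0% and 61.1% of all probe sets of an array lay above the floor, a signal of 7.51 under which values were not told apart. The Gapdh control probe sets gave ratios of the 3′ to the 5′ end of 0.847 to 0.899, and those of beta-actin gave 1.37 and 1.40 in heart and 1.11 in both muscle arrays. Sod2 signal was lower in d/d heart on all 4 probe sets, by log2 differences of -1.22 to -0.21, and differed by -0.44 to 0.06 in muscle; the sources used here do not place these probe sets inside or outside the deleted part. All 12 cardiomyocyte markers were higher in heart and all 12 markers of skeletal fibres higher in muscle in both genotypes, so the arrays match their tissue labels. Of the family, 37 members lay above the floor on all 4 arrays and 3 on some of them (Slc25a2, Slc25a13 and Slc25a48). Slc25a18, Slc25a31, Slc25a41 and Slc25a54 were at the floor on all 4. Slc25a31 is the adenine nucleotide carrier known from testis, and Slc25a18 is a second glutamate carrier known mainly from brain. A signal at the floor is not a level of 0, and in bulk tissue fewer cells of a type and less RNA per cell cannot be told apart.

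**Figure D1:**
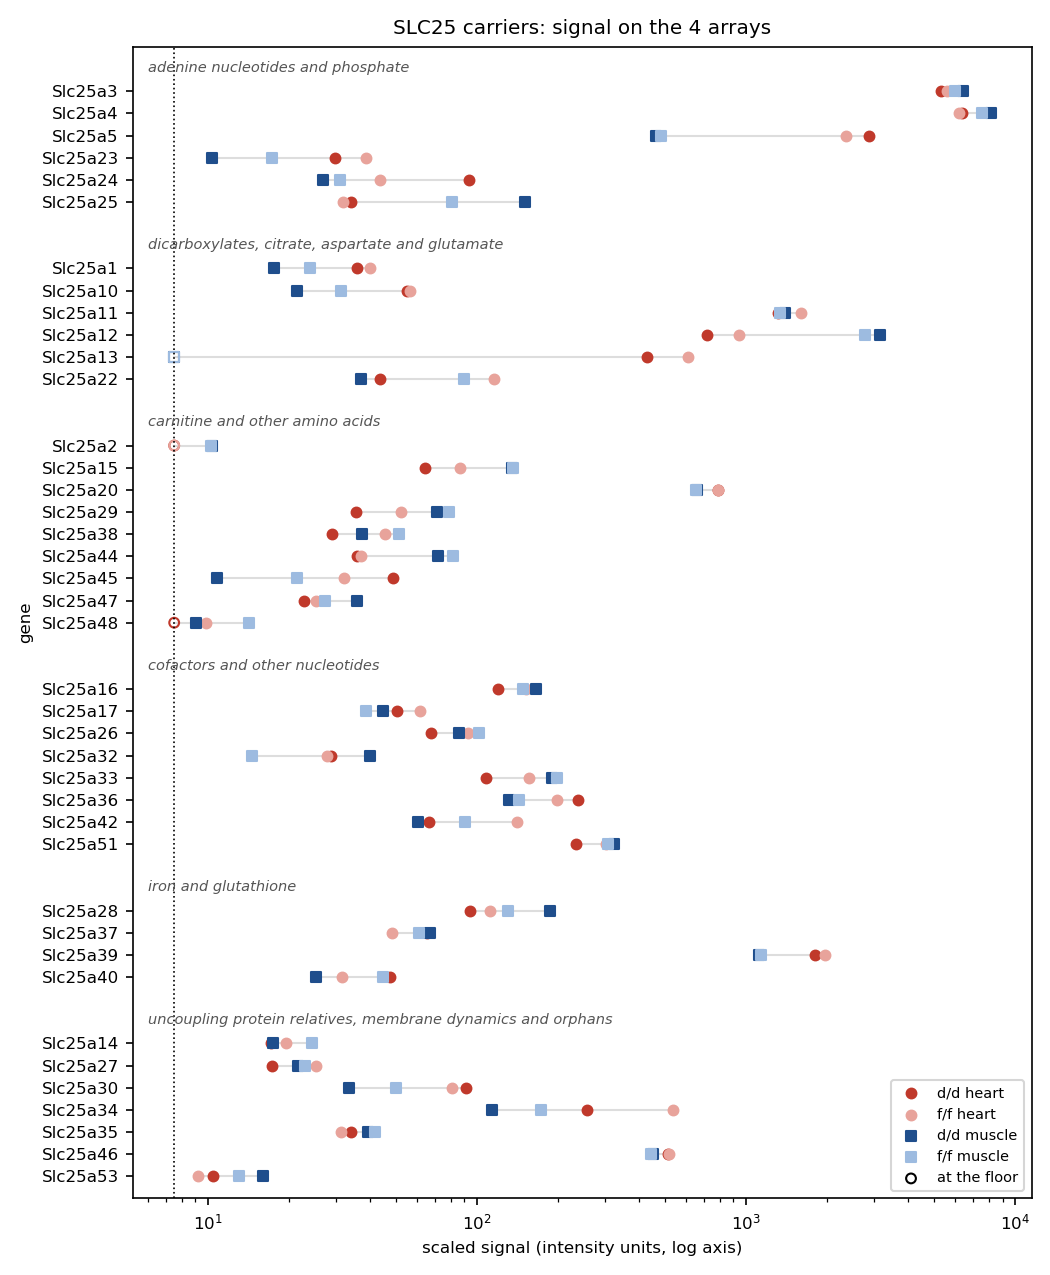
Scaled array signal (log axis) of the 40 SLC25 members above the floor on at least 1 of the 4 arrays, by role, 1 point per array; open points are at the floor of 7.51 (dotted line), and points that coincide hide each other. Slc25a22, Slc25a34 and Slc25a42 lie lower in d/d than in f/f in both tissues, and Slc25a13 is at the floor in both muscle arrays.

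In heart, 3 carriers were at least 2-fold lower in d/d than in f/f and 1 was at least 2-fold higher, of 39 members with a measured difference (the other 5 were at the floor in both hearts). The lower ones were Slc25a22, a glutamate carrier, Slc25a42, a carrier of coenzyme A, and Slc25a34, whose substrate is not settled; the higher one was Slc25a24, a calcium-regulated carrier of ATP-magnesium and phosphate. The lower members make up 7.69% of those measured, against 4.22% of 13836 genes, and the higher member 2.56%, against 3.94% of genes. At 1.5-fold, 4 members were lower (10.3%, against 13.3% of genes) and 3 were higher (7.69%, against 11.2%). The median log2 difference of the members was -0.16, with 26 of 39 below 0, against -0.05 and 54.6% below 0 over all genes. The share of members below 0 was thus 66.7%, and its excess over all genes has no test. For single genes, probe sets of 1 gene differed in their log2 ratio by an SD of 0.388 in heart over 5375 genes and of 0.400 in muscle over 5207, a technical spread and not one between animals.

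In muscle, Slc25a22 was again at least 2-fold lower in d/d, and Slc25a32, a carrier of folate, was at least 2-fold higher on its representing probe set. Each is 2.56% of the 39 measured members, against 3.25% of 14256 genes lower and 2.64% higher. At 1.5-fold, 7 members were lower (17.9%, against 10.8% of genes): Slc25a22, Slc25a23, Slc25a34, Slc25a40, Slc25a42, Slc25a45 and Slc25a48. Higher by 1.5-fold were 2 (5.13%, against 9.06%), Slc25a25 and Slc25a32. The median over the members was -0.06, with 23 of 39 (59.0%) below 0, against a median within 0.01 of 0 and 50.4% below 0 over all genes. The shares past 2-fold lay close to those of the array, while more members than genes were lower by 1.5-fold, again without a test. Across the 38 members measured in both tissues, the heart and muscle differences had a Pearson correlation of 0.219, against -0.06 across 12711 genes, as a description; the points share their arrays. Below 0 in both tissues were 16 members (42.1%, against 26.7% of genes), and above 0 in both were 6 (15.8%, against 21.8%).

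**Figure D2:**
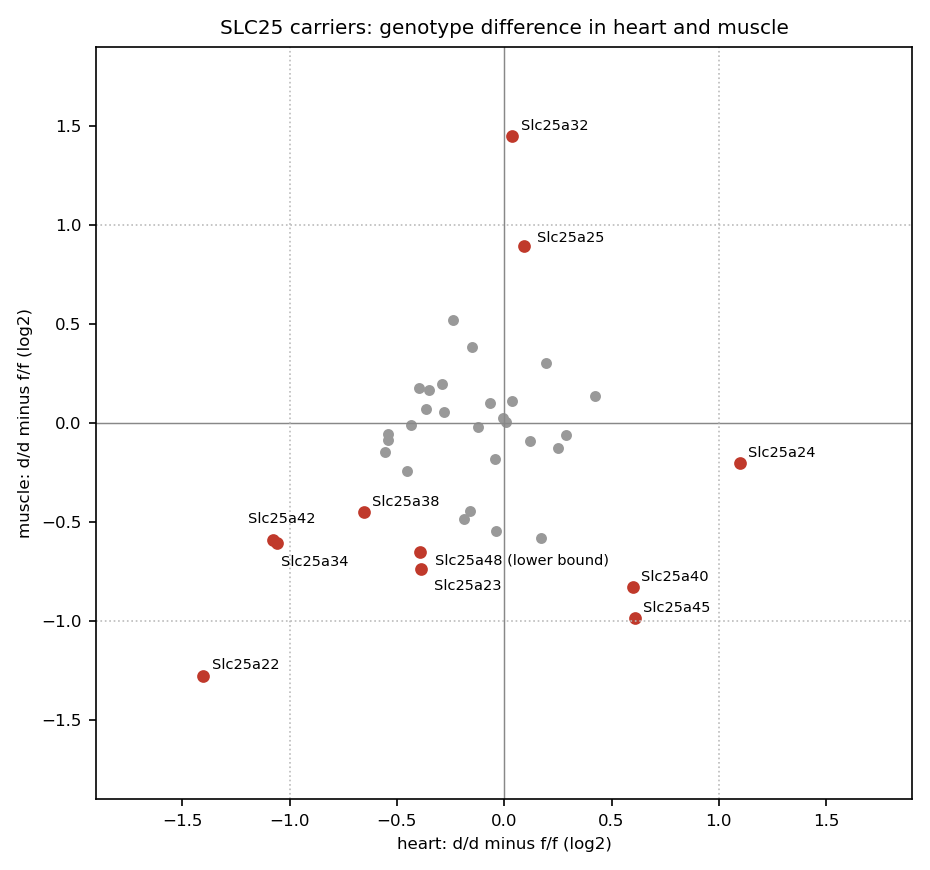
Log2 difference d/d minus f/f in heart (x axis) and in muscle (y axis), 1 point per member, dotted lines at 2-fold; members at least 1.5-fold apart in either tissue are red and named. Slc25a22 lies below -1 on both axes, and Slc25a40 and Slc25a45 lie above 0.5 in heart and below -0.5 in muscle.

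The carriers of adenine nucleotides and phosphate included the main adenine nucleotide translocases, Slc25a4 (ANT1) and Slc25a5 (ANT2), the phosphate carrier Slc25a3 and the calcium-regulated carriers of ATP-magnesium and phosphate. Of these 8 members 6 were measured, with a median genotype difference of 0.06 in heart and 0.02 in muscle. The signal of Slc25a4, the isoform known for heart and muscle, was 6355 (d/d) and 6206 (f/f) in heart and 8133 (d/d) and 7529 (f/f) in muscle. Its d/d and f/f signals lay close together in both tissues, with log2 differences of 0.03, which turns its sign on the values as deposited, and 0.11. Slc25a3 gave 5317 (d/d) and 5574 (f/f) in heart and 6432 (d/d) and 6002 (f/f) in muscle, log2 differences of -0.07 and 0.10, whose signs turn with quantile normalization. The representing probe sets of both lie near the top of the signal range. A dim second probe set of Slc25a3, at 12.7 (d/d) and 18.4 (f/f) in heart and 8.79 (d/d) and 21.5 (f/f) in muscle, was lower in d/d, by -0.54 and -1.29.

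Slc25a5 signal was 2866 (d/d) and 2350 (f/f) in heart and 462 (d/d) and 482 (f/f) in muscle. Both hearts lay well above both muscles, and d/d heart lay above f/f heart by 0.29 on the log2 scale. All 8 probe sets of Slc25a5 were higher in d/d heart, by 0.04 to 0.54, but they share a target, and 6 of them carry the array maker's mark for probes that may bind similar sequences. The ATP-magnesium carriers differed among themselves. Slc25a24 signal was 93.6 (d/d) and 43.7 (f/f) in heart and 26.9 (d/d) and 30.9 (f/f) in muscle, so that d/d heart was the high array, 2.14-fold above f/f heart. Its second, dimmer probe set went the other way in heart, at 13.6 against 19.8. Slc25a25 gave 34.1 (d/d) and 32.0 (f/f) in heart and 151 (d/d) and 81.2 (f/f) in muscle; here d/d muscle was the high array. Another of its probe sets was also higher in d/d muscle, at 18.4 against 10.1, while the third was at the floor in d/d muscle and at 13.6 in f/f muscle. Slc25a23 gave 29.8 (d/d) and 38.9 (f/f) in heart and 10.4 (d/d) and 17.3 (f/f) in muscle, lower in d/d in both, with log2 differences of -0.39 and -0.74 on its 1 probe set.

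The carriers of dicarboxylates, citrate, aspartate and glutamate were lower in d/d heart in 6 of 6 measured members, with a median log2 difference of -0.34 and 1 member past 2-fold. In muscle 3 of 5 were lower. Over all genes 54.6% lay below 0 in heart and 50.4% in muscle. The heart differences of Slc25a10 (-0.04), Slc25a1 (-0.16) and Slc25a11 (-0.28) were smaller than the SD of 0.388 between probe sets of a gene. Slc25a22, which brings glutamate into the matrix with a proton, gave 43.8 (d/d) and 116 (f/f) in heart and 37.1 (d/d) and 89.9 (f/f) in muscle. Both d/d arrays lay below both f/f arrays, 2.64-fold in heart and 2.42-fold in muscle, and this member has 1 probe set. Slc25a12 and Slc25a13, the aspartate-glutamate carriers of the malate-aspartate shuttle, divided between the tissues. Slc25a12 (aralar) gave 718 (d/d) and 944 (f/f) in heart and 3151 (d/d) and 2785 (f/f) in muscle. Muscle was high in both genotypes, and the heart differences of its 3 probe sets were -0.40, -0.80 and -0.79. Slc25a13 (citrin) gave 429 (d/d) and 611 (f/f) in heart, apart by -0.51 on the log2 scale, and was at the floor in both muscles. Slc25a11, the oxoglutarate carrier of the same shuttle, gave 1318 (d/d) and 1602 (f/f) in heart and 1400 (d/d) and 1345 (f/f) in muscle, a log2 difference of -0.28 between the hearts and 0.06 between the muscles. The citrate carrier Slc25a1 gave 36.0 (d/d) and 40.1 (f/f) in heart and 17.7 (d/d) and 24.1 (f/f) in muscle. The dicarboxylate carrier Slc25a10 gave 55.0 (d/d) and 56.4 (f/f) in heart and 21.5 (d/d) and 31.4 (f/f) in muscle, but its second probe set was higher in d/d muscle by 0.63 where the first was lower by -0.55.

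Of the 9 carriers of carnitine and other amino acids, 6 of 8 measured lay below 0 in heart and 6 of 9 in muscle, and 0 passed 2-fold in either. The shares of all genes below 0 were 54.6% in heart and 50.4% in muscle. Slc25a20, which exchanges acylcarnitines for carnitine, gave 792 (d/d) and 788 (f/f) in heart and 657 (d/d) and 656 (f/f) in muscle. The genotypes were within 0.01 of each other on the log2 scale on this probe set, while the second probe set differed by -0.43 in heart, at 412 against 553, and by 0.23 in muscle. Its partners in the carnitine shuttle were lower in d/d heart in 4 of 4 measured genes: Cpt2, which reforms acyl-CoA inside mitochondria, by -1.01 (552 against 1114), the carnitine importer Slc22a5 by -0.90, carnitine acetyltransferase Crat by -0.80 and Cpt1a, which makes acylcarnitines, by -0.69. In muscle 3 of the 4 were lower in d/d, with a median of -0.28. Slc25a38, the glycine carrier that serves haem synthesis, gave 29.1 (d/d) and 45.7 (f/f) in heart and 37.6 (d/d) and 51.3 (f/f) in muscle, lower in d/d in both. Slc25a29, a carrier of basic amino acids, was lower in d/d heart on all 5 of its probe sets, by -0.56 on the one that represents it; in muscle 3 of the 5 were higher in d/d, by up to 0.71, and the representing one differed by -0.15. Slc25a45 was high in d/d heart and low in d/d muscle on its 1 probe set. It gave 48.9 (d/d) and 32.1 (f/f) in heart and 10.9 (d/d) and 21.5 (f/f) in muscle. The ornithine carrier of the urea cycle, Slc25a15, had signals of 64.2 (d/d) and 86.8 (f/f) in heart and 135 (d/d) and 136 (f/f) in muscle, with d/d heart the low array. Slc25a44, a carrier of branched-chain amino acids, had 36.1 (d/d) and 37.2 (f/f) in heart and 71.8 (d/d) and 81.6 (f/f) in muscle. Muscle was high in both genotypes on this probe set. Another of its probe sets differed between the f/f tissues by only -0.28. A dim further probe set had 8.31 (d/d) and 24.8 (f/f) in heart and 13.4 (d/d) and 15.1 (f/f) in muscle, with f/f heart the high array. Slc25a47, best known from liver, had 22.8 (d/d) and 25.3 (f/f) in heart and 35.8 (d/d) and 27.4 (f/f) in muscle, a small range. Slc25a2, a further ornithine carrier, was at the floor in both hearts and had 10.4 (d/d) and 10.3 (f/f) in muscle. Slc25a48 was at the floor in d/d heart and gave 9.86 in f/f heart, and 9.03 (d/d) and 14.2 (f/f) in muscle, all close to the floor.

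Of the 8 carriers of cofactors and other nucleotides, 6 lay below 0 in heart, with a median of -0.36, and 4 of 8 in muscle, with a median of 0.01. Among all genes 54.6% were below 0 in heart and 50.4% in muscle. Slc25a42, which imports coenzyme A, gave 66.6 (d/d) and 141 (f/f) in heart and 60.3 (d/d) and 90.8 (f/f) in muscle. Both d/d arrays lay below both f/f arrays, 2.11-fold in heart and 1.51-fold in muscle, and a second, dim probe set differed the same way by -0.59 and -0.25. Slc25a32 gave 28.6 (d/d) and 27.9 (f/f) in heart and 40.04 (d/d) and 14.7 (f/f) in muscle, 2.73-fold higher in d/d muscle. Its other 2 probe sets were lower in d/d muscle, at 8.91 against 11.5 and at the floor against 15.8, so the direction for this gene is not settled. The carrier of S-adenosylmethionine, Slc25a26, was lower in d/d heart on both probe sets, by -0.45 and -1.04. Slc25a33 and Slc25a36 carry pyrimidine nucleotides. Slc25a33 was lower in d/d heart (108 against 157), while Slc25a36 was higher there on all 3 of its probe sets, by 0.21 to 0.46, and lower in d/d muscle on all 3, by -0.41 to -0.12. Slc25a16, linked to coenzyme A, had signals of 120 (d/d) and 152 (f/f) in heart and 166 (d/d) and 148 (f/f) in muscle, with d/d below f/f in heart and above it in muscle. Slc25a17, a carrier of peroxisomes, had 50.5 (d/d) and 61.6 (f/f) in heart and 44.7 (d/d) and 38.9 (f/f) in muscle, all within a narrow range. Slc25a51, the carrier of NAD, gave 235 (d/d) and 303 (f/f) in heart and 324 (d/d) and 309 (f/f) in muscle.

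The 4 carriers of iron and glutathione had medians of 0.15 in heart and 0.06 in muscle. Slc25a37 (mitoferrin 1), an iron importer, gave 65.1 (d/d) and 48.5 (f/f) in heart and 66.9 (d/d) and 60.8 (f/f) in muscle, with d/d above f/f in both. Slc25a28 (mitoferrin 2), the other iron importer, gave 94.6 (d/d) and 112 (f/f) in heart and 187 (d/d) and 130 (f/f) in muscle, below f/f in d/d heart and above it in d/d muscle. Slc25a39, a glutathione carrier, gave 1811 (d/d) and 1972 (f/f) in heart and 1124 (d/d) and 1139 (f/f) in muscle, log2 differences of -0.12 and -0.02. Slc25a40, its close relative, was high in d/d heart and low in d/d muscle on its 1 probe set, at 47.6 (d/d) and 31.5 (f/f) in heart and 25.3 (d/d) and 44.9 (f/f) in muscle.

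The 8 relatives of the uncoupling proteins, carriers of membrane dynamics and carriers of unsettled substrate had medians of -0.01 in heart and -0.09 in muscle over 7 measured members. Slc25a34 gave 257 (d/d) and 536 (f/f) in heart and 114 (d/d) and 174 (f/f) in muscle. The hearts lay above the muscles, and d/d lay below f/f in both tissues, 2.08-fold in heart and 1.52-fold in muscle on its 1 probe set. Slc25a46, a protein of the outer membrane that acts in mitochondrial fission, gave 516 (d/d) and 518 (f/f) in heart and 452 (d/d) and 444 (f/f) in muscle, the genotypes being within 0.03 of each other on the log2 scale. Slc25a30, a relative of the uncoupling proteins, had signals of 91.3 (d/d) and 81.0 (f/f) in heart and 33.6 (d/d) and 50.2 (f/f) in muscle, with both hearts above both muscles. Slc25a14 and Slc25a27, uncoupling protein relatives known from brain, were dim. Slc25a14 had 17.2 (d/d) and 19.6 (f/f) in heart and 17.5 (d/d) and 24.4 (f/f) in muscle, and Slc25a27 had 17.4 (d/d) and 25.3 (f/f) in heart and 21.7 (d/d) and 23.0 (f/f) in muscle. Slc25a35, a relative of Slc25a34, had 34.1 (d/d) and 31.4 (f/f) in heart and 39.3 (d/d) and 41.8 (f/f) in muscle, and Slc25a53 had 10.5 (d/d) and 9.18 (f/f) in heart and 16.1 (d/d) and 13.1 (f/f) in muscle. On their representing probe sets none of these 5 members was 1.5-fold apart between genotypes in either tissue. A dim probe set of Slc25a30 was 1.65-fold lower in d/d heart, at 11.7 against 19.3. Ucp3, an uncoupling protein of the same family left out by its symbol, gave 22.5 (d/d) and 303 (f/f) in heart and 121 (d/d) and 354 (f/f) in muscle, log2 differences of -3.75 and -1.55, larger than those of any SLC25 member on its representing probe set. The carrier relatives Mtch1 and Mtch2 differed by 0.54 and -0.33 in heart and by -0.29 and 0.05 in muscle.

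**Figure D3:**
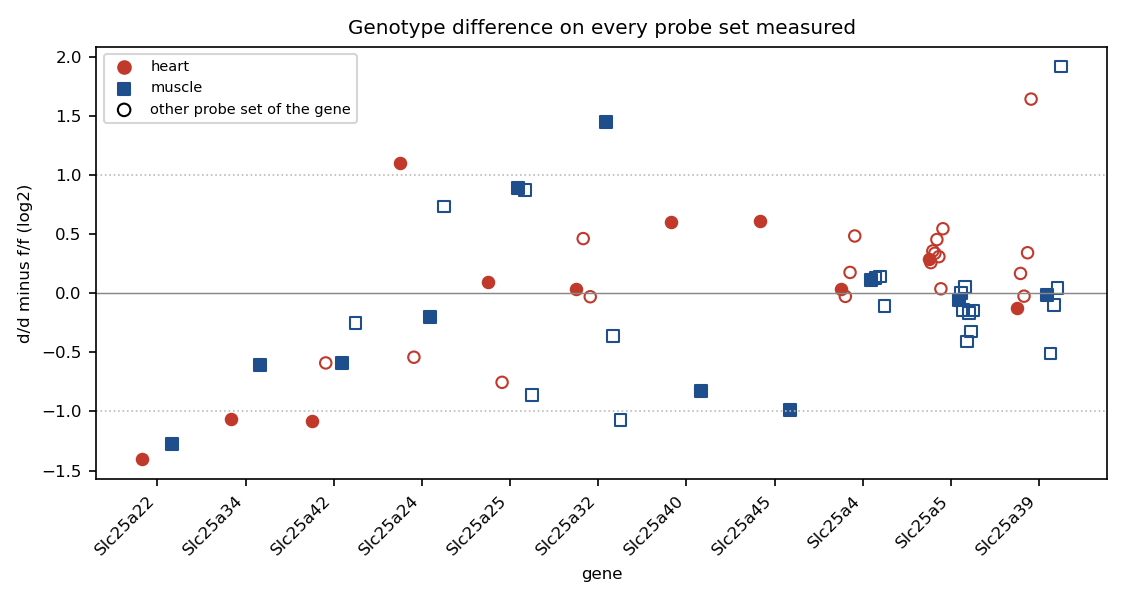
Log2 difference d/d minus f/f (y axis) on every measured probe set of 11 members (x axis), in heart (circles) and muscle (squares), filled for the probe set that represents the gene and open for its others; where the lower array is at the floor the point is a lower bound. The 8 probe sets of Slc25a5 lie above 0 in heart, whereas the 3 of Slc25a32 lie on both sides of 0 in muscle.

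Probe sets of 1 gene often disagreed on the genotype difference. In heart, all measured probe sets pointed the same way in 12 of 21 members with at least 2, and in muscle in 6 of 22. Of the members past 2-fold, Slc25a22 and Slc25a34 have 1 probe set, the probe sets of Slc25a42 went the same way and those of Slc25a24 and Slc25a32 did not. Differences past 2-fold were also more common at low signal: in muscle they were found in 10% of genes with a mean signal under 50 and in 0.872% of those at 200 or more, and Slc25a32 is in the dim range.

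The genotype effect averaged over the tissues was fitted with limma on all 4 arrays with tissue as a block, which leaves 1 residual degree of freedom. After Benjamini-Hochberg adjustment over 13497 genes, 0 of the 40 members tested were called, and 0 genes of the array (0%). At an unadjusted p under 0.05 the fit held 3 of the 40 members and 570 of the 13497 genes. That share of genes is below the 0.05 that would be met with no genotype effect. A genotype effect that differs between the tissues counts as error in this fit. The share therefore cannot say that genotype effects are absent. Those members were Slc25a22, with a fitted log2 difference of -1.34 (SE 0.26, unadjusted p 0.0026), Slc25a42, at -0.83 (unadjusted p 0.0266), and Slc25a34, at -0.83 (unadjusted p 0.0259), each lower in d/d in both tissues and each with a limma adjusted p of 0.9998. They are the members that were lower by 1.5-fold in both tissues.

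The tissue difference was larger than the genotype difference for several members. In f/f mice 4 of 40 members were at least 2-fold higher in heart (10%, against 12.1% of 14364 genes): Slc25a5, Slc25a13, Slc25a23 and Slc25a34. At least 2-fold lower in heart were 3 (7.5%, against 8.3%): Slc25a12, Slc25a25 and Slc25a44. In d/d mice 9 members were at least 2-fold higher in heart (22.5%, against 15.1% of 14124 genes), adding Slc25a1, Slc25a10, Slc25a24, Slc25a30 and Slc25a45 to the list, and 3 were lower (7.5%, against 10.5%), Slc25a12, Slc25a25 and Slc25a15. This split of 9 to 3 became 8 to 6 with median scaling and with quantile normalization, and the f/f split of 4 to 3 became 12 to 1 on the values as deposited, which move the median of all genes from 0.08 to 0.47 towards heart. Whether the tissue effect differs between genotypes has no test here.

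Over both genotypes, limma with genotype as a block called 6 of the 40 members at an adjusted p under 0.05, against 13.6% of 13497 genes. A lower floor, at the 20th percentile, gave 0 members and 0 genes called, so none of the 6 calls held there. Quantile normalization lost Slc25a23 and Slc25a34, and the median over probe sets lost Slc25a25. Slc25a5 was higher in heart by a fitted log2 difference of 2.46 (SE 0.27, limma adjusted p 0.0061), 4.87-fold in f/f and 6.202-fold in d/d, and each of its 8 probe sets gave at least 1.998 on the log2 scale in f/f. Slc25a13 was at least 81.4-fold higher in f/f heart and at least 57.1-fold higher in d/d heart than in muscle. Both muscles were at the floor. These bounds move with the floor: in log2 they were 6.35 and 5.84 here and 5.01 and 4.50 at the 60th-percentile floor. Slc25a13 passed the limma filter through its 2 heart arrays alone, and both its muscle values are the floor itself. Its limma call is thus no support beyond these bounds, and with all 4 arrays required it was not tested. Slc25a12, the other aspartate-glutamate carrier, was lower in heart by -1.85 (limma adjusted p 0.0167), 2.95-fold in f/f and 4.39-fold in d/d. Slc25a34 (1.40, limma adjusted p 0.0314) and Slc25a23 (1.35, adjusted p 0.0324) were higher in heart, and Slc25a25 (-1.74, adjusted p 0.0238) was lower. The ATP-magnesium carriers Slc25a23 and Slc25a25 had opposite tissue differences under these settings, as did Slc25a12 and Slc25a13. Slc25a44 (-1.06, adjusted p 0.0528) and Slc25a10 (1.101, adjusted p 0.058) did not pass the limma threshold.

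**Figure D4:**
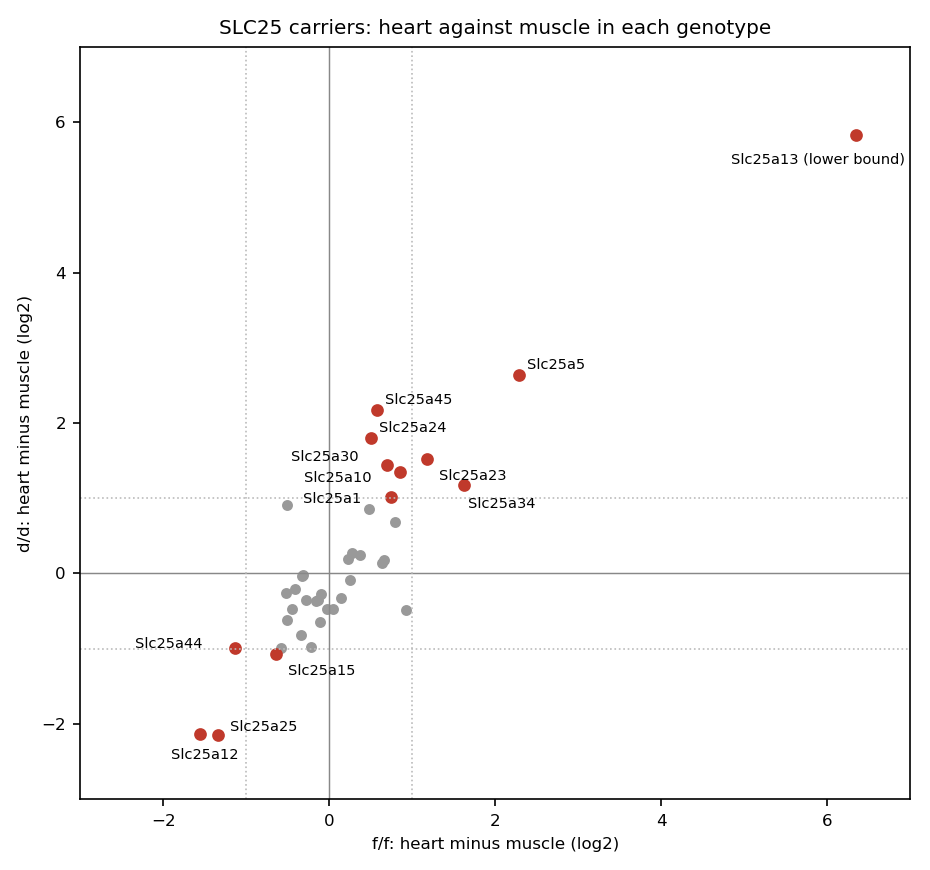
Log2 difference heart minus muscle in f/f (x axis) and in d/d (y axis), 1 point per member, dotted lines at 2-fold; members at least 2-fold apart in either genotype are red and named. Slc25a13, at its lower bound, and Slc25a5 lie far to the heart side, and Slc25a12 and Slc25a25 to the muscle side, in both genotypes.

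Other genes of mitochondrial transport gave a background for the family. Of 15 measured inner membrane transporters and channels outside it, 0 passed 2-fold in heart, with a median of 0.01, and 1 in muscle, Sfxn4, a sideroflexin, at -1.22. The outer membrane channels Vdac1, Vdac2 and Vdac3 had medians of -0.02 in heart and 0.12 in muscle. The 10 genes of carrier import had medians of 0.02 and -0.01, and 0 passed 2-fold in either tissue. The malate-aspartate partners Got1, Got2, Mdh1 and Mdh2 were lower in d/d heart in 4 of 4, with a median of -0.13. Genes used as a guide to mitochondrial content were lower in d/d heart in 8 of 8, by -0.48 to -0.09, and higher in d/d muscle in 7 of 8, with a median of 0.11. Their part in the carrier differences was not tested.

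Markers of other cells also moved with genotype. Fibroblast markers were higher in d/d heart in 8 of 9, with summed signals of 10045 (d/d) and 6182 (f/f), and lower in d/d muscle in 9 of 9, with sums of 4531 and 7146. Macrophage markers were higher in d/d heart in 9 of 10 (sums 2978 and 2239) and lower in d/d muscle in 9 of 9 measured (853 and 1332). Endothelial sums were 1803 (d/d) and 1417 (f/f) in heart and 775 (d/d) and 760 (f/f) in muscle. Of 6 adipocyte markers matched, Lep, Cidec and Ucp1 were at the floor on all 4 arrays. The sums of the list were 3414 (d/d) and 3884 (f/f) in heart and 3109 (d/d) and 2790 (f/f) in muscle, most of it Fabp4, at 3369 (d/d) and 3799 (f/f) in heart and 3038 (d/d) and 2651 (f/f) in muscle. Retn was lower in d/d in both tissues, by -0.37 in heart and from 22.9 to the floor in muscle, and Adipoq gave 10.4 (d/d) and 46.6 (f/f) in heart and 40.5 (d/d) and 93.4 (f/f) in muscle. Slow fibre markers summed to 1139 (d/d) and 3233 (f/f) in muscle, and cardiomyocyte markers, some of which slow fibres share, to 4063 and 6524 there. Actc1 held much of the latter sums, at 2241 (d/d) and 2265 (f/f). Of the cardiomyocyte markers, 10 of 10 measured were lower in d/d muscle, with a median of -1.75. By 2-fold or more 7 were lower, against 3.25% of genes. Tnni3, for example, gave 8.30 (d/d) and 86.8 (f/f) in muscle. The part of these cell and fibre markers in the carrier differences was not tested.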

How the data were processed

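The authors deposited 1 linear intensity per probe set and array; the sources used here do not say how it was made from the scans. Of 45101 probe sets, 64 controls were left out. Arrays were scaled to the mean of their 2% trimmed means (heart 66.6 for d/d and 69.2 for f/f, muscle 48.2 for d/d and 51.4 for f/f), values under a floor of 7.51 (the mean 40th percentile) were set to it, and log2 of the deposited intensity so scaled was taken. Probe sets were named by the platform annotation (34945 with 1 symbol, 932 with several, 9160 unnamed here); a RefSeq lookup of 34741 ids changed 0 symbols. A gene is represented by its probe set of highest mean log2 signal. Folds were counted at 2-fold or 1.5-fold with the higher array above the floor; a fold against the floor is a lower bound. Limma 3.58.1 (R 4.3.3) was fitted to the 13497 genes that exceeded the floor on 2 or more arrays, Benjamini-Hochberg adjusted at 0.05. A trial run on simulated data took its noise from the variance model of the fit and had no floor. It is therefore no check of the calls on these arrays. With 1 array a group, the limma p-values rest on the differences between tissues or genotypes and on the pooled variance. Other work used Python 3.11.15.

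The members and gene lists were chosen with earlier results of these data known. Named with values are members 1.5-fold apart between genotypes, the 10 of highest signal, those 4-fold apart between tissues in f/f, and 14 chosen by role; signals of most other members above the floor were added after their values were seen. Alternatives were other scalings, floors of the 20th and 60th percentile, a pseudocount of 16 in place of the floor, the median over probe sets and a 1.5-fold threshold. List genes with no matched symbol, such as Cpt1b, Ucp2 and Plin1, were not used here. The red cell list had medians of -0.30 in heart and 0.45 in muscle.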

Additional observations from a re-analysis of the deposited data

Results flagged for a closer look

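Slc25a40 and Slc25a45 had genotype differences of opposite sign, at least 1.5-fold each way, higher in d/d heart and lower in d/d muscle. The heart difference minus the muscle difference was 1.43 on the log2 scale for Slc25a40 and 1.60 for Slc25a45. With 1 array a group this difference between tissues was not tested. Each of these members has 1 probe set, with signals under 50 on all 4 arrays. How many of all genes meet the same rule was not counted.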

How the results depend on the processing

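The count of members past 2-fold was 4 in heart, and became 2 with a pseudocount, 2 with the median over probe sets and 7 at 1.5-fold. In muscle it was 2, and became 4 with the 20th-percentile floor, 0 with a pseudocount, 1 with the median over probe sets and 9 at 1.5-fold. Between tissues it went from 7 to 13 without scaling and to 16 at 1.5-fold in f/f, and from 12 to 21 at 1.5-fold in d/d. The limma tissue count of 6 became 13 without scaling, 12 with the 60th-percentile floor, 10 with a pseudocount, 4 with quantile normalization, 8 with the median over probe sets and 0 with the 20th-percentile floor, where 0 genes of the array were called and 8 members had an unadjusted p under 0.05. The tissue count over all genes moved the same way. It was 1840, and became 3341 without scaling, 2668 with the 60th-percentile floor and 2582 with a pseudocount. With quantile normalization it was 1236, and with the median over probe sets 1908. The genotype count stayed 0 under each alternative, with 1 to 4 members at an unadjusted p under 0.05. Slc25a32 in muscle turned to -0.72 with the median over its 3 probe sets, of which 2 were lower in d/d muscle. The cause of the other shifts was not tested. The median over members stayed below 0, from -0.21 to -0.11 in heart and -0.15 to -0.02 in muscle. Of 782 alternative values for the 26 named members, 744 moved by less than the spread between probe sets of a gene, and the others moved further. The sign turned in 44 of the 782, in 16 members; 42 of these had been under 1.5-fold. Past 2-fold, Slc25a32 in muscle alone turned. No paired analysis was possible because the labels give no replicate numbers and each group has 1 array. Leaving out an array leaves the additive fit no residual degree of freedom. The number of arrays and signal near the floor limit these values.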

Other observations

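Probe sets of a gene can carry patterns that the representing probe set does not show. A dim probe set of Slc25a39 was at the floor in both f/f arrays and gave 23.4 in d/d heart and 28.3 in d/d muscle, at least 3.12-fold and at least 3.77-fold higher in d/d. The 4 other probe sets of Slc25a39 differed by -0.12 to 0.34 in heart and by -0.51 to 0.04 in muscle. Slc25a4 differed little between tissues on its representing probe set, with a sign that turns without scaling or with quantile normalization, whereas another probe set gave 1109 (d/d) and 982 (f/f) in heart and 4487 (d/d) and 4064 (f/f) in muscle, a log2 difference between f/f tissues of -2.05. The dimmest probe set of Slc25a4 gave -1.50 for the same difference. These probe sets were singled out after their values were seen.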
